A study of Sus scrofa with 2 samples.

Results

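NHS, PRKG1, ARHGAP24, PID1 and CACNB2 are 5 of the 31908 genes counted in nuclei of pig kidney cortex by droplet RNA sequencing. They were selected on these data for a raised level in endothelial nuclei of the perfused library, so their endothelial ratio between the libraries is given below as a description and carries no test. What the selection did not use is their level in the other classes of nuclei. The lists of genes they work with were drawn up with earlier results of these data known, so their values are descriptions too. Their spread over single endothelial nuclei and endothelial subclusters comes from the same UMIs that the selection used. A higher value in the perfused library there is therefore no separate support.

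The study compared renal cortex taken from pig kidneys before perfusion (unperfused, 1 library) with cortex from kidneys that had been perfused outside the body for 120 min, at a pressure of 100 mmHg and a temperature of 37 °C (perfused, 1 library). Both libraries came from isolated organs, outside the animal and its nerves and hormones. The paper reports that the pig kidneys were obtained from a slaughterhouse, then flushed and stored cold before perfusion began. The sources used here do not say whether both pieces of cortex came from the same animal, and they give no sex, strain or age. With 1 library for each condition, the condition cannot be told apart from the animal, the piece of tissue or the library.

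The unperfused library held 34415254 UMIs (unique molecular identifiers, tags that each mark 1 captured RNA molecule) in 7179 barcodes and the perfused library 35525592 UMIs in 6205 barcodes. After the limits on nuclei and the removal of doublets 6389 and 5421 nuclei were kept, with a median of 3755 and 4383 UMIs, and 14 barcodes occurred in both libraries. Mitochondrial genes held 0.116% and 0.304% of the UMIs. Clustering gave 12 named classes, among them endothelial (EC), stromal (STROMA), immune-like (IMM), podocyte (PODO), proximal (PT), distal convoluted (DCT) and connecting tubule (CNT), loop of Henle (LOH), principal (PC), type A and type B intercalated (IC-A, IC-B) and dividing (CYCLING) nuclei. The EC class held 1282 unperfused and 814 perfused nuclei with 2613957 and 2023522 UMIs and a median of 1881 and 2210 UMIs per nucleus, and each of its 10 marker genes was higher in EC than in any other class. The IMM class was mixed, since 865 of its nuclei joined STROMA and 333 stayed in it when the clustering was made finer.

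The 5 genes act at different points between a signal at the cell surface and the cytoskeleton. PRKG1 encodes the cGMP-dependent protein kinase that nitric oxide and natriuretic peptides activate through guanylyl cyclases, and that is known for relaxing vascular smooth muscle. CACNB2 encodes an auxiliary β subunit that brings voltage-gated calcium channels to the membrane. ARHGAP24 (FilGAP) switches off the small GTPase Rac and binds filamin A, NHS is an actin regulator mutated in Nance-Horan syndrome and related to the WAVE proteins, and PID1 is an adaptor with a phosphotyrosine-binding domain that binds the receptor LRP1 and dampens insulin signalling. Endothelial cells sense flow and pressure, and their shape and barrier depend on the actin cytoskeleton.

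In EC nuclei all 5 genes had a higher CPM (UMIs of the gene scaled to the UMIs of the class) in the perfused library. PRKG1 had 150 UMIs (57.4 CPM) before and 349 UMIs (172 CPM) after perfusion, a log2 ratio of 1.59 (95% interval 1.31 to 1.87). NHS had 112 and 252 UMIs (42.8 and 125 CPM), a log2 ratio of 1.54 (1.21 to 1.87). These were the highest and the next highest of all EC genes with a symbol that reached 100 UMIs in either library. ARHGAP24 had 79 and 134 UMIs (30.2 and 66.2 CPM), a log2 ratio of 1.13 (0.72 to 1.55). PID1 had 93 and 148 UMIs (35.6 and 73.1 CPM), giving 1.04 (0.66 to 1.43) on the log2 scale. The smallest ratio belonged to the gene with the most UMIs before perfusion. CACNB2 had 245 and 358 UMIs (93.7 and 177 CPM), a log2 ratio of 0.92 (0.68 to 1.16). All intervals are exact and cover counting error only, not differences between animals, and they are too narrow where the UMIs of a gene lie in few nuclei.

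All 5 genes passed a ratio of 1.5-fold upward with an interval without 0, as their selection implies, and 1.42% of the 4942 EC genes that reached 100 UMIs in either library did so (70 genes), while 5.85% passed it downward (289 genes). The split depended on the scaling. With TMM factors 152 genes were higher and 164 lower, and with DESeq2 size factors 182 and 152, because the median log2 ratio of all EC genes moved from -0.06 to 0.07 and 0.09. DAPK1, a kinase of cell death pathways, lay inside the range of the 5 genes at a log2 ratio of 1.12 (0.70 to 1.54) and is no member. The first genes with a symbol below CACNB2 were SETBP1 at 0.88, PDK2 at 0.88 and SYT7 at 0.86.

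None of the 5 genes has its highest level in endothelium. NHS was highest in PT, with 3644 and 4166 CPM and a UMI in 99.3% and 98.9% of the nuclei, and EC was 8th of the 12 classes. PRKG1, ARHGAP24 and PID1 were highest in STROMA, at 3351 and 4662, 2353 and 3186, and 1296 and 1334 CPM in the unperfused and the perfused library. PRKG1 stood high in one epithelial class as well, with 979 and 1210 CPM in IC-B against at most 69.6 CPM in any other tubule class of either library. CACNB2 was highest in CNT, at 588 and 673 CPM. EC was the 5th class for PRKG1, the 6th for PID1 and for CACNB2, and the lowest of the 12 for ARHGAP24. By the counting intervals of the pooled level, EC could not be separated from IC-A for NHS, from PODO for PRKG1 and from CYCLING for CACNB2, whereas for ARHGAP24 and PID1 it differed from its neighbours in the order by more than counting error.

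**Figure D1:**
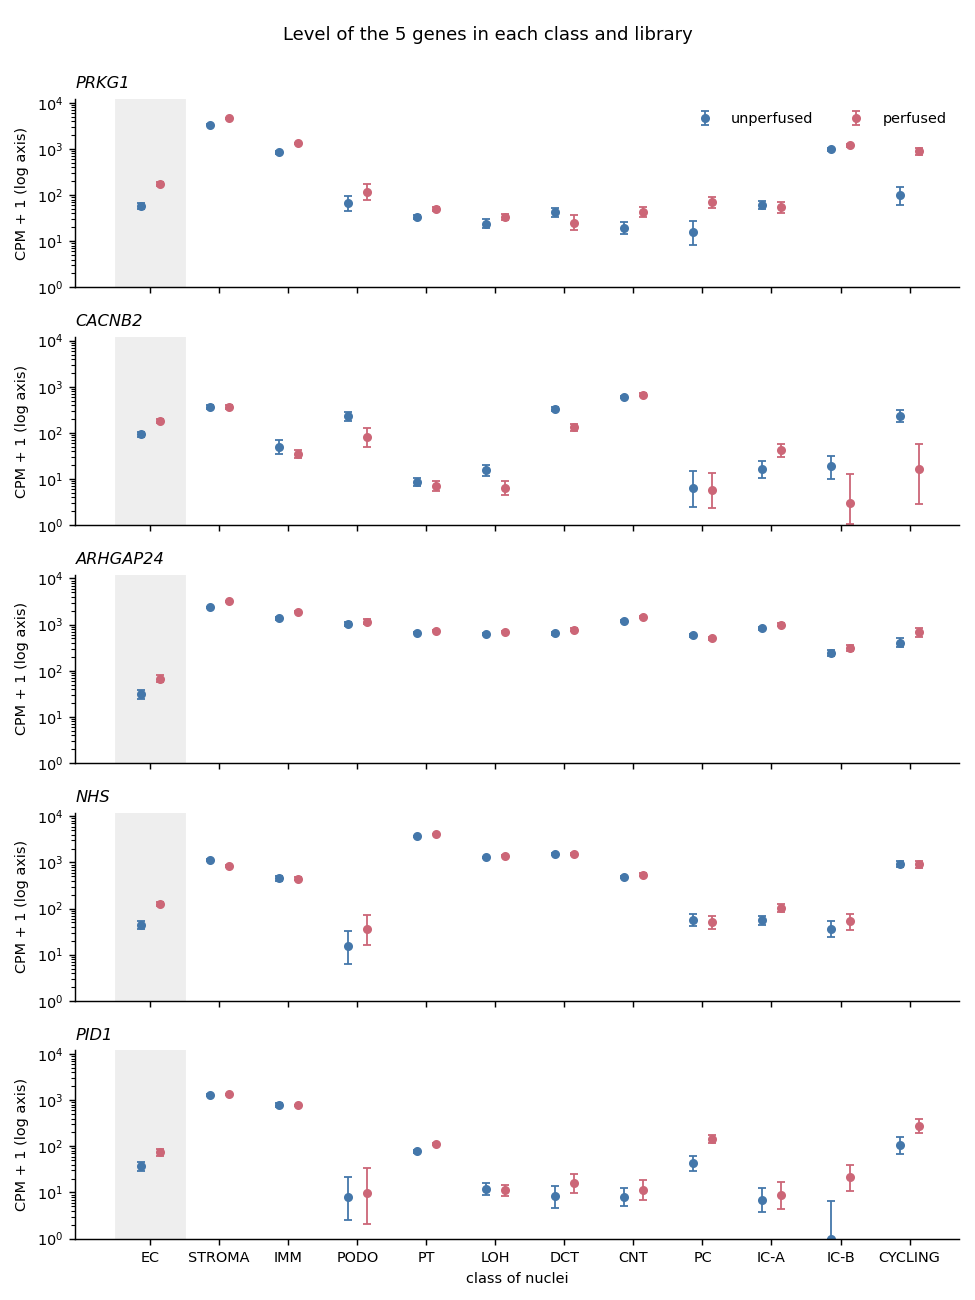
Level of each gene (vertical, CPM plus 1 on a log axis) in the 12 classes of nuclei (horizontal) of the unperfused (blue) and perfused (red) library; points are the summed level and bars the exact 95% counting interval. EC (shaded) is the lowest class for ARHGAP24, and PT is the highest for NHS.

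The endothelial signal was sparse. In the unperfused library 7.41% of EC nuclei had a UMI of NHS, 6.86% of PRKG1, 6.01% of ARHGAP24, 5.07% of PID1 and 8.11% of CACNB2. In the perfused library these shares were 12.7%, 15.1%, 11.1%, 9.71% and 11.7%. The order of the libraries was the same for each gene when each nucleus was thinned to 1000 UMIs, at 3.73% and 5.79% for NHS, 4.38% and 9.14% for PRKG1, 2.84% and 5.41% for ARHGAP24, 2.76% and 6.05% for PID1, and 5.68% and 7.98% for CACNB2 (1232 and 777 nuclei). EC nuclei in which all 5 genes were at 0 made up 71.9% of the unperfused and 54.5% of the perfused library, or 82.7% and 70.4% after thinning. At least 3 of the 5 genes met in 19 perfused nuclei (2.33%, exact 95% interval 1.41 to 3.62) and in 4 unperfused nuclei (0.312%, 0.0851 to 0.797).

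A UMI in a nucleus can come from RNA that leaked into the suspension, and classes in which a gene is scarce give a rough guide to how often. After thinning, PRKG1 was found in 1.57% and 2.25% of CNT nuclei (6.77% and 8.93% before thinning, median depth 3999 and 5903 UMIs), PID1 in 1.01% and 0.746% of IC-A nuclei (2.34% and 5.22%, median depth 4801 and 6639), and CACNB2 in 0.404% and 0.499% of LOH nuclei (3.48% and 2.98%, median depth 4154 and 5753). The thinned EC shares of these 3 genes lay above those values in both libraries. Before thinning, PRKG1 in the unperfused library was nearly level, at 6.86% in EC and 6.77% in CNT. These classes are deeper than EC. Whether free RNA in a nucleus grows with its depth was not tested, so the thinned shares may understate the background. CACNB2 was also lower in PC (1.70% and 0.667%), where its level is lowest. Other classes gave another answer for PRKG1 and PID1. The thinned PRKG1 share was 5.70% and 2.99% in IC-A and 5.62% and 3.33% in PODO, so above EC in the unperfused library only. PID1 was found in 2.84% and 9.33% of PC nuclei after thinning, above EC in both. The answer for NHS depended on the class as well. Its thinned EC share lay above that of IC-B (2.70% and 3.33%, or 14.3% and 18.3% before thinning, median depth 5654 and 7544) and below that of IC-A (5.03% and 5.97%). Before thinning, the EC share of NHS (7.41% and 12.7%) lay below that of IC-B. No class had a lower share of ARHGAP24 than EC, so its EC share could not be set against a background. A free RNA estimate from LRP2, CUBN, SLC12A1 and UMOD, genes of the tubule, gave 10.8% and 9.95% of EC UMIs. It came to 521 and 393 UMIs of NHS, where 112 and 252 were counted, and to 213 and 196 of ARHGAP24, where 79 and 134 were counted. For PRKG1 it came to 62.5 and 94.5 UMIs, for PID1 to 33.0 and 42.4 and for CACNB2 to 30.1 and 17.1. An estimate above the counts is too high for NHS and ARHGAP24, so it cannot sort the 5 genes. The part of free RNA in their EC counts was not tested.

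**Figure D2:**
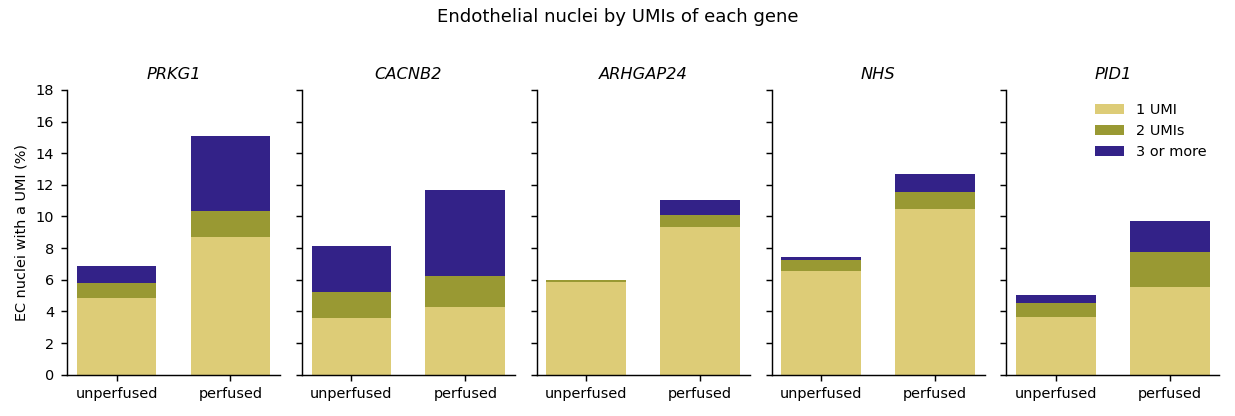
Share of EC nuclei (vertical, percent) with 1, 2 or at least 3 UMIs of each gene in the unperfused and the perfused library; stacked bars start at 0. The perfused bar is the taller for all 5 genes, and CACNB2 and PRKG1 have the most nuclei with at least 3 UMIs.

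The PRKG1 difference was spread over several endothelial subclusters. Nuclei with at least 3 of its UMIs numbered 14 of 1282 before and 39 of 814 after perfusion, and the richest nucleus held 14 and 34 UMIs. Reclustering the EC nuclei gave 7 subclusters, and PRKG1 was higher in the perfused library in each of the 5 largest. In subcluster 0 (592 and 83 nuclei) it went from 34.0 to 230 CPM, a log2 ratio of 2.76 (2.09 to 3.44). PLVAP stood at 997 CPM there, near the 965 and 896 CPM of subclusters 1 and 3. In subcluster 1 (218 and 379 nuclei, led by the chemokine genes CXCL10, CCL2 and CXCL9 and by ESM1) PRKG1 went from 15.6 to 55.7 CPM, a log2 ratio of 1.83 (0.74 to 3.12). These subclusters held very different shares of the 2 libraries. Their PRKG1 UMIs numbered 35 and 45 in subcluster 0 and 8 and 49 in subcluster 1. The part of the subcluster shares in the EC ratio was not tested. Subcluster 2 (173 and 135 nuclei), rich in the glomerular endothelial gene EHD3, had the highest PRKG1 level, 233 and 561 CPM, with a log2 ratio of 1.27 (0.91 to 1.64). Subclusters 3 and 4 had log2 ratios of 1.35 (0.17 to 2.66) and 2.74 (1.30 to 4.49). With the subclusters weighted equally the log2 ratio was 1.58, and in the nuclei without a UMI of a stromal marker it was 1.60.

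PRKG1 was also higher in the perfused library outside endothelium. STROMA held 3747 and 7398 of its UMIs, a log2 ratio of 0.48 (0.42 to 0.53), IC-B 660 and 584, 0.31 (0.14 to 0.47), and PT 330 and 401, 0.58 (0.36 to 0.79). In PC it had 11 and 57 UMIs, a log2 ratio of 2.22 (1.28 to 3.31), and in CYCLING 21 and 115 UMIs, 54 of the latter in 1 nucleus. The opposite order was seen in DCT, with 63 and 28 UMIs and a log2 ratio of -0.76 (-1.46 to -0.10), and in IC-A the interval held 0. Over all kept nuclei outside EC the log2 ratio was 1.05, which includes the larger number of stromal and IMM nuclei in the perfused library (490 against 362 and 894 against 310).

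Of 15 other genes of cGMP and PKG signalling with enough UMIs in EC, 1 passed the fold upward and none downward. Over all EC genes 1.42% and 5.85% did, and a list this short does not separate from those shares. The median log2 ratio of the 15 genes was 0.12 against -0.06 over all EC genes. The one that passed was PDE3A, a phosphodiesterase that cGMP inhibits, with 676 and 921 UMIs and a log2 ratio of 0.82 (0.67 to 0.96). With DESeq2 size factors PDE1A passed too, which stood at 0.44 (0.09 to 0.79) in CPM. NOS3, which makes nitric oxide in endothelium, had 484 and 302 UMIs and a ratio of -0.31 (-0.52 to -0.10). The natriuretic peptide receptor NPR1 stood at 0.16 (-0.02 to 0.34), the guanylyl cyclase subunit GUCY1A1 at 0.19 (-0.08 to 0.45), and the kinase substrate VASP at -0.57 (-0.99 to -0.17). PRKG1 had the largest ratio of the listed genes tested, but it was selected for that ratio and the others were not.

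CACNB2 in endothelium belonged almost wholly to subcluster 2. That subcluster held 217 of its 245 unperfused and 323 of its 358 perfused EC UMIs, and its level there was 556 and 898 CPM, a log2 ratio of 0.69 (0.44 to 0.95). CACNB2 is among the genes that lead the subcluster, together with EHD3, GATA5 and ITGA8. In subcluster 0 it had 11 and 0 UMIs and in subcluster 1 it had 3 and 8. Subcluster 2 was 13.5% of unperfused and 16.6% of perfused EC nuclei. Nuclei with at least 10 UMIs of CACNB2 numbered 0 and 9. The difference was also uneven over nuclei with RNA of other classes. EC nuclei with an LRP2 or CUBN UMI had 121 and 114 UMIs of CACNB2, 0.17 (-0.21 to 0.55), against 124 and 244 UMIs, 1.43 (1.11 to 1.75), in those without one. Nuclei with a stromal marker UMI had 35 and 33 UMIs, -0.56 (-1.29 to 0.17), against 210 and 325 UMIs, 1.20 (0.94 to 1.45), in those without one. The part of that RNA in the difference was not tested. Nor was it even over depth, since in the third of EC nuclei with the fewest UMIs it was 49 and 10 UMIs, a log2 ratio of -0.86 with an interval from -2.01 to 0.13.

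Outside EC, CACNB2 did not follow the endothelial order. DCT had 496 and 150 UMIs, a log2 ratio of -1.32 (-1.59 to -1.05), PODO 96 and 18 UMIs, -1.49 (-2.31 to -0.76), and LOH 48 and 27 UMIs, -1.41 (-2.15 to -0.70). STROMA did not differ beyond counting error, at 359 and 364 CPM and a log2 ratio of 0.02 (-0.16 to 0.21). IC-A had the same order as EC, with 23 and 41 UMIs and 1.41 (0.64 to 2.21). In CNT, where the gene is highest, only 15.5% and 24.1% of nuclei had a UMI, and 1 perfused nucleus held 265 of the 958 UMIs. Without the richest nucleus of each library the CNT ratio turned from 0.19 to -0.11. Of the calcium channel subunits and their inhibitors, the list of 28 genes, only CACNA2D1 besides CACNB2 had enough UMIs in EC, with 778 and 678 UMIs and a log2 ratio of 0.17 (0.02 to 0.32). The pore subunits CACNA1C and CACNA1D of L-type channels had 10 and 11, and 96 and 50 UMIs.

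**Figure D3:**
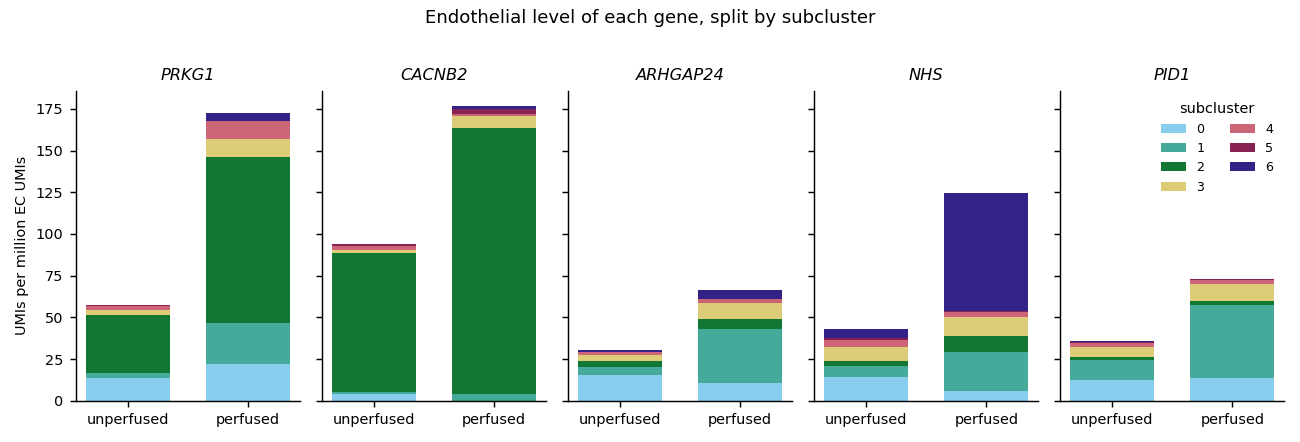
EC level of each gene (vertical, CPM, bars from 0) in the unperfused and the perfused library, divided by the EC subcluster that holds the UMIs (colours, subclusters 0 to 6). Subcluster 2 holds most of CACNB2, and subcluster 6 holds most of NHS in the perfused library.

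ARHGAP24 is a gene of nearly every other kidney class. It was found in 83.8% and 84.9% of PT nuclei and in 91.0% and 100% of podocytes, where FilGAP is known to limit Rac at the foot processes, with 1028 and 1147 CPM there. In EC the richest unperfused nucleus had 2 UMIs and 75 of the nuclei had exactly 1, whereas 2 perfused nuclei held 13 and 12 UMIs. Among the subclusters, the level went from 39.8 to 112 CPM in subcluster 0, and the log2 ratio was 1.65 (0.75 to 2.68) in subcluster 1 and 1.28 (0.08 to 2.60) in subcluster 3, and the intervals of subclusters 2 and 4 held 0. In the EC nuclei with a UMI of a stromal marker (162 and 159 nuclei) ARHGAP24 had 13 and 65 UMIs, a log2 ratio of 1.85 (0.98 to 2.83). In the nuclei without one it had 66 and 69 UMIs, 0.63 (0.12 to 1.14). The share of EC nuclei with a stromal marker UMI was 12.6% and 19.5%, and its part in the ARHGAP24 ratio was not tested.

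In the other classes the differences of ARHGAP24 were small and mostly in the same order. The log2 ratio was 0.44 (0.37 to 0.51) in STROMA, 0.27 (0.19 to 0.36) in CNT, 0.26 (0.13 to 0.39) in DCT, 0.15 (0.07 to 0.23) in LOH and 0.13 (0.08 to 0.18) in PT. PC had the opposite order at -0.22 (-0.42 to -0.02), and the interval of PODO held 0. In EC its partner filamin A (FLNA) had 111 and 65 UMIs, a log2 ratio of -0.40 (-0.87 to 0.05). RAC1 stood at -0.14 (-0.35 to 0.07), and ARHGAP31, a GAP for Rac and Cdc42, at 0.43 (0.34 to 0.52).

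The endothelial ratio of NHS rested on few nuclei. One perfused EC nucleus held 59 of the 252 UMIs, and it had 19553 UMIs in all, with 140 of proximal tubule markers beside 138 of endothelial markers. The next nuclei held 22 and 18, and the richest 9 nuclei held 59.1% of the perfused UMIs against 26.8% in the richest 13 nuclei of the unperfused library. Subcluster 6, of only 7 unperfused and 11 perfused nuclei, is led by NHS itself and has 1319 CPM of the proximal tubule receptor LRP2 beside its endothelial markers. It held 13 of the 112 and 143 of the 252 NHS UMIs. Without it NHS stood at 99 and 109 UMIs, a log2 ratio of 0.54 (0.13 to 0.94), and with the 6 larger subclusters weighted equally at 0.25. In the EC nuclei without a UMI of LRP2 or CUBN it had 61 and 64 UMIs, 0.52 (-0.01 to 1.05), and in those with one 51 and 188 UMIs, 2.14 (1.68 to 2.61). At a clustering resolution of 1.0 the ratio was 0.38. The other 4 genes kept log2 ratios from 0.93 to 1.58 without subcluster 6.

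Elsewhere NHS differed little between the libraries. PT had 36900 and 34345 UMIs, a log2 ratio of 0.19 (0.17 to 0.21), LOH 0.11 (0.06 to 0.17), CNT 0.17 (0.03 to 0.30) and DCT 0.02 (-0.07 to 0.11). STROMA had the opposite order to EC, with 1280 and 1304 UMIs, 1145 and 822 CPM and a log2 ratio of -0.48 (-0.59 to -0.37). IC-A had 54.8 and 102 CPM, a log2 ratio of 0.90 (0.47 to 1.34), which turned to -0.32 without the nuclei that had a marker UMI of another lineage. Of 17 other genes of the NHS family and the WAVE complex tested in EC, 1 passed the fold upward and 0 downward. Over all EC genes 1.42% and 5.85% did, and a list this short does not separate from those shares. The median log2 ratio of the 17 genes was -0.06. The gene that passed was the relative NHSL1, with 624 and 777 UMIs and 0.69 (0.53 to 0.84), and NHSL2 stood at 0.42 (0.16 to 0.68). The WAVE complex members NCKAP1 and ABI1 stood at -0.31 (-0.46 to -0.16) and -0.28 (-0.46 to -0.09). NHS lies on the X chromosome. Of 5 sex-linked genes tested in EC, all X-linked, 0 passed the fold, against 1.42% upward and 5.85% downward of all EC genes. Their median log2 ratio was -0.23, from -0.28 (-0.48 to -0.09) for ZFX to 0.00 (-0.18 to 0.19) for DDX3X. Over all kept nuclei the Y-linked genes KDM5D, ZFY and EIF1AY had 2 and 0, 3 and 0, and 3 and 2 UMIs. A sex difference between the libraries was not tested.

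PID1 had no nucleus that dominated its count. The richest EC nuclei held 4 and 6 UMIs, and nuclei with at least 3 numbered 7 of 1282 and 16 of 814. Subcluster 1 held 32 of the 93 unperfused and 88 of the 148 perfused UMIs and had a log2 ratio of 0.68 (0.08 to 1.31). Subcluster 0 went from 31.1 to 143 CPM, 2.20 (1.42 to 2.98), on 32 and 28 UMIs, while subclusters 2 to 4 had intervals that held 0. The EHD3-rich subcluster thus carried 5 and 5 UMIs of PID1, unlike PRKG1 and CACNB2. In the nuclei without an LRP2 or CUBN UMI the log2 ratio was 0.73 (0.18 to 1.29), and without a stromal marker UMI it was 1.04.

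STROMA, the class with most PID1, did not differ beyond counting error, at 0.04 (-0.06 to 0.14). PT had 774 and 927 UMIs, a log2 ratio of 0.56 (0.42 to 0.70), and PC 31 and 118 UMIs, 1.78 (1.20 to 2.40), with a UMI in 10.8% and 29.8% of nuclei. In IC-B, PID1 had 0 and 10 UMIs. Of 14 other phosphotyrosine-binding adaptors and insulin signalling genes tested in EC, 0 passed the fold, with a median log2 ratio of 0.10. Over all EC genes 1.42% passed it upward and 5.85% downward, and a list this short does not separate from those shares. The insulin receptor INSR stood at 0.40 (0.21 to 0.59), IGF1R at 0.37 (0.25 to 0.49), the adaptor GULP1 at 0.37 (0.18 to 0.55) and AKT1 at -0.32 (-0.70 to 0.04).

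**Figure D4:**
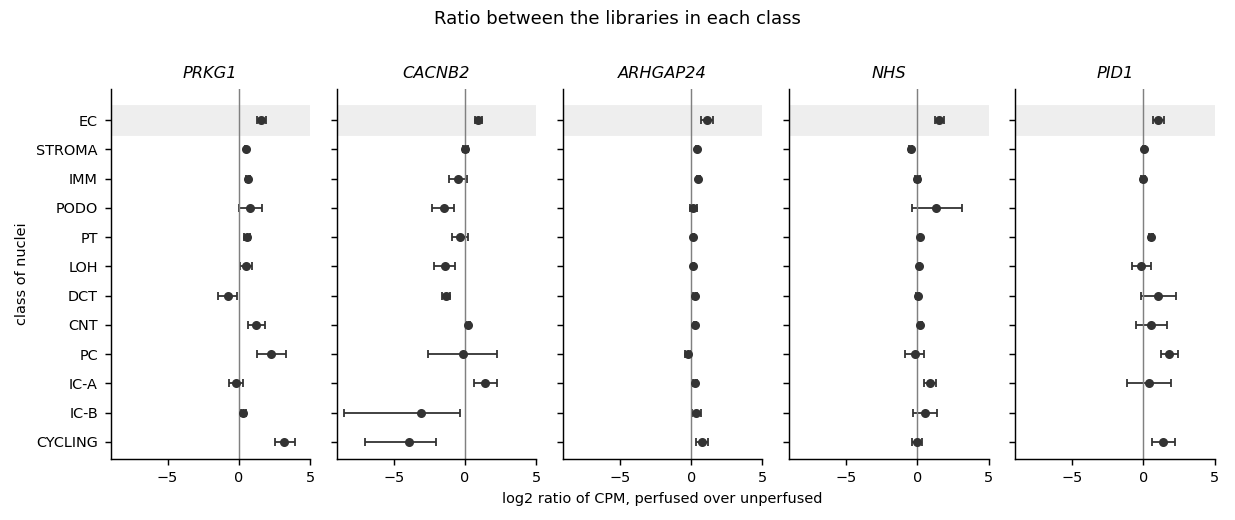
Log2 ratio of CPM in the perfused over the unperfused library (horizontal) for each gene in each class of nuclei (vertical); points are ratios of summed UMIs and bars exact 95% counting intervals. No point is drawn where a count was 0 or both were at most 3, and EC (shaded) lies right of 0 for all 5 genes while CACNB2 lies left of 0 in DCT, LOH and PODO.

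By the rule used in EC, 0 of the 5 genes passed the fold upward in STROMA, where 9.36% of 3589 tested genes did. The count was 0 of 4 in PT, against 0.962% of 8837 genes, and 0 of 3 in LOH, against 1.62% of 6967 genes. In IMM it was 1 of 4, PRKG1, against 6.66% of 5387 genes. The PRKG1 ratio in IMM was 0.66 (0.53 to 0.79), and without integration of the libraries it turned to -0.20. PRKG1 stood at 0.61 (0.28 to 0.94) in the IMM nuclei that stayed IMM in the finer clustering and at 0.54 (0.40 to 0.68) in those that joined STROMA.

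The 5 genes did not share 1 pattern over the classes. The correlation of their log levels over the 12 classes was highest for PRKG1 and PID1 (Pearson's r = 0.68) and at most 0.33 for every other pair. The genes with the most similar pattern over the same classes were ETV5 for NHS (r = 0.96), GPRIN3 for PRKG1 (0.97), PARD3 for ARHGAP24 (0.85), MEIS1 for PID1 (0.95) and TSC22D1 for CACNB2 (0.81). In EC their log2 ratios were -0.39 for ETV5 (22 and 13 UMIs), 0.25 for PARD3, 0.32 for MEIS1 and -0.18 for TSC22D1. Classes share 2 libraries and differ in depth, and these correlations are descriptions.

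All 5 genes are longer than the median gene, and the ratio in EC varied with gene length. Length was taken as the span of the gene in the RefSeq annotation of Sscrofa11.1, which 88.6% of the 4942 tested EC genes matched, with a median of 65.4 kb. PRKG1 spans 1235 kb, ARHGAP24 744 kb, CACNB2 565 kb, NHS 354 kb and PID1 135 kb. The median log2 ratio over all genes was -0.26 below 20 kb, -0.15 from 20 to 50 kb, -0.06 from 50 to 100 kb, 0.04 from 100 to 200 kb, 0.12 from 200 to 500 kb and 0.18 from 500 kb. The part of length in the ratios of the 5 genes was not tested.

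**Figure D5:**
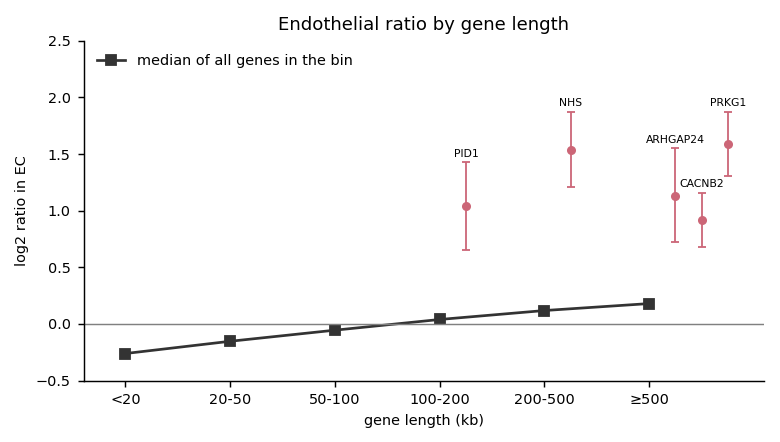
Log2 ratio in EC, perfused over unperfused (vertical), by gene length in kb (horizontal, 6 bins); squares are the median over all genes of the bin and red points the 5 genes with exact 95% counting intervals, set beside their bin. The median climbs from -0.26 to 0.18 over the bins. The 5 genes were selected for a high ratio.

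Marker genes of other classes were present in EC nuclei of both libraries. The summed level of the 12 stromal markers was 369 and 529 CPM, a log2 ratio of 0.52 (0.39 to 0.65). ITGA8, which also leads EC subcluster 2, held 614 and 662 of those UMIs, and the other 11 markers stood at 134 and 202 CPM, 0.59 (0.38 to 0.80). The markers did not all move alike. PDGFRB had 9 and 16 UMIs and NOTCH3 3 and 7, while MYH11 went the other way with 16 and 7. The part of stromal RNA in the ratios of PRKG1, ARHGAP24 and PID1, which are highest in STROMA, was not tested. The 10 proximal tubule markers had 610 and 580 CPM, -0.07 (-0.18 to 0.04), and the 7 loop of Henle markers 402 and 420 CPM, 0.06 (-0.07 to 0.20). In the 320 and 178 EC nuclei without a UMI of a set of markers of other lineages (such as LRP2, SLC12A1, PTPRC, PDGFRB and COL1A1), PRKG1 had 26 and 65 UMIs, a log2 ratio of 1.93 (1.25 to 2.64), and CACNB2 43 and 98 UMIs, 1.79 (1.26 to 2.35). PID1 had 14 and 22 UMIs, 1.26 (0.23 to 2.34), and the intervals of NHS, 22 and 19 UMIs, and ARHGAP24, 17 and 17 UMIs, held 0.

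Of 13 other endothelial genes known to respond to flow that had enough UMIs, 0 passed the fold upward and 2 downward, against 1.42% and 5.85% of all EC genes, with a median log2 ratio of -0.18 against -0.06. These were PIEZO1, a mechanically gated channel, with 242 and 108 UMIs and -0.79 (-1.14 to -0.46), and the transcription factor KLF4, with 179 and 92 UMIs and -0.59 (-0.97 to -0.22), which lies at the edge of the fold and did not pass it with TMM factors (-0.47) or DESeq2 size factors (-0.45). KLF2, a factor that laminar flow induces, stood at -0.35 (-0.51 to -0.18).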

How the data were processed

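The authors aligned single-nucleus reads with Cell Ranger 5.0.1 to a reference from Ensembl release 103 of the pig genome, with intronic reads counted, and deposited raw UMI counts of each gene in each barcode. Genome positions were not printed because the sources used here name no assembly. Nuclei needed 500 to 6000 genes and no more than 7% of UMIs from mitochondrial genes. Doublets called by Scrublet (scanpy 1.11.5) were removed (641 and 489). Libraries were integrated and clustered in Seurat 5.3.0 (2000 variable genes, 15 components, resolution 0.5), with the 5 genes and all listed genes kept out of the variable genes. Clusters were named from 13 marker lists. UMIs were summed by class and library and compared as CPM, with exact 95% intervals. No ratio was given where a count was 0 or both were at most 3. No p-value was computed, since each condition has 1 library. The ratio and its interval were tested on simulated data. SoupX was not run, because empty droplets were not used here.

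Genes named are the 5 members, those beside them in rank, genes of the lists, and the gene most similar over classes. The count over 1 of the lists and some of its genes are not reported here. The members and lists were chosen with earlier results of these data known. Which list genes to name, the splits by LRP2, CUBN or stromal markers (PDGFRB, PDGFRA, COL1A1, COL1A2, COL3A1, DCN, NOTCH3, MYH11 and C7) and the omission of subcluster 6 were chosen after the values were seen. Alternatives used edgeR 4.0.16 (TMM factors) and DESeq2 1.42.0 (size factors) for scaling only.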

Additional observations from a re-analysis of the deposited data

Results flagged for a closer look

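In 3 cases a gene moved in another class in the opposite direction to EC, with at least 100 UMIs and a counting interval below 0. CACNB2 had a log2 ratio of -1.32 in DCT and 0.92 in EC. ARHGAP24 had -0.22 in PC and 1.13 in EC. NHS had -0.48 in STROMA and 1.54 in EC. With 1 library for each condition, the difference between the classes was not tested.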

How the results depend on the processing

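All 5 genes stayed higher in perfused EC under each alternative that gave a value, with log2 ratios from 0.25 to 1.68 for NHS, 0.75 to 1.93 for PRKG1, 0.34 to 2.38 for ARHGAP24, 0.41 to 1.80 for PID1 and 0.41 to 1.79 for CACNB2. Subtracting free RNA gave no value for NHS and ARHGAP24, since the estimate exceeds their counts, and 1.90 for PRKG1. NHS moved to 0.38 at a resolution of 1.0, 0.68 with doublets kept, 1.16 as mean of the per-nucleus CPM, 1.08 after thinning and 0.25 with subclusters weighted equally. The Seurat fold change with a pseudocount of 1, which shrinks low levels by construction, gave 0.46 for NHS, 0.75 for PRKG1, 0.34 for ARHGAP24, 0.41 for PID1 and 0.41 for CACNB2. With EC defined by a marker gate ARHGAP24 moved to 2.38, PID1 to 1.80 and CACNB2 to 0.53. Without integration ARHGAP24 moved to 0.64 and PRKG1 in IMM reversed to -0.20, and with the members among the variable genes CACNB2 moved to 1.26. Without nuclei that had a marker UMI of another lineage the EC ratio was 0.39 for NHS, 1.93 for PRKG1, 0.61 for ARHGAP24 and 1.79 for CACNB2, and 3 ratios elsewhere reversed, PRKG1 in LOH (-0.46), NHS in IC-A (-0.32) and ARHGAP24 in IC-B (-0.73). Without the richest nucleus CACNB2 in CNT reversed to -0.11. The cause of these moves was not tested. Of 309 values in other classes under the alternatives, 225 stayed inside the counting interval, 79 moved outside it and 5 reversed.

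Chosen after seeing the data, the omission of subcluster 6 moved NHS to 0.54, omission of nuclei with an LRP2 or CUBN UMI gave 0.52 for NHS, 0.64 for ARHGAP24 and 1.43 for CACNB2, and omission of nuclei with a stromal marker UMI gave 1.07, 0.63 and 1.20. The EC genes past the fold numbered 233 higher and 1112 lower with at least 20 UMIs, 152 and 164 with TMM factors, and 182 and 152 with DESeq2 size factors, against 70 and 289. No paired analysis was possible because each condition has 1 library, and for the same reason no library could be left out. UMI counts below about 100 in EC limit the smaller splits.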
